A study of Mus musculus with 6 samples.

Results

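Mitochondrial ribosomal protein genes were examined in the gastrocnemius, a calf muscle of mostly fast fibres, of old and young male mice. The members were the genes whose symbol begins with Mrpl or Mrps and a number, 78 of the 36717 genes on the array, carried by 100 probes. Counts of all genes here include array names without a RefSeq symbol. They comprised 49 genes named for the large subunit and 29 named for the small subunit. These are all 78 protein-coding genes of that name pattern in the RefSeq table. The old group was 3 samples from males of 25 months and the young group 3 samples from males of 13 weeks. The labels give no strain, genotype or treatment for either age. Each sample's total RNA, carrying the dye Cy3, was put on its own single-colour array. The study describes old muscle as atrophied by aging, and the comparison asked which transcripts differ between the ages.

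The mitochondrial ribosome, or mitoribosome, translates the few proteins that mitochondrial DNA encodes, all of them subunits of the oxidative phosphorylation complexes. Its rRNAs are mitochondrially encoded, whereas every one of its proteins is encoded in the nucleus, made in the cytosol and imported. Its large subunit forms peptide bonds, and its small subunit reads the mRNA. Some of its proteins descend from the bacterial ribosome, and others were added during the evolution of mitochondria. In muscle, a tissue rich in mitochondria, it supplies the core subunits of the respiratory chain.

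No mitoribosomal protein gene differed between old and young muscle after adjustment over all genes, and most of the measured differences were small and negative. Of the 78 genes, 77 passed the filter on dim probes and were tested, each well above background on all 6 arrays. In limma's moderated test, 0 of the 77 had a Benjamini-Hochberg adjusted p under 0.05, against 53 of 20906 genes (0.254%) in all. The lowest adjusted p was 0.163, for Mrps28. At an unadjusted p under 0.05, 6 members were lower in old muscle (7.79%, against 8.39% of all genes) and 0 were higher (against 6.07%). The log2 differences, old minus young, ran from -0.65 to 0.56, with a median of -0.15, against -0.06 over all genes tested. They were negative for 54 of the 77 (70.1%, against 56.9% of all genes). Nothing in the labels ties each sample to its own animal, so the p-values reflect only how far these samples spread, and that spread may be technical. An exact permutation test of 3 against 3 cannot give a p below 0.1.

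The signal of these genes, most of them bright, was measured with a smaller spread than that of most genes. The median standard error of the log2 difference was 0.168 for the members, against 0.221 for all genes tested. For 72 of the 77 (93.5%) the 95% interval of the difference lay wholly within a 2-fold change in either direction, against 66.4% of all genes. The share was 83.6% among the brightest 5227 genes, 93.9% among cytosolic ribosomal protein genes and 93.6% among nuclear respiratory chain genes. The exceptions were Mrps28, Mrps9, Mrpl19, Mrpl35 and Mrpl42. A change of less than 2-fold in the other 72 was thus compatible with these arrays, and a larger one lay outside the interval of the probe that represents the gene. Other probes were not covered by these intervals. Those of Mrps18b, Mrpl15 and Mrpl41 gave larger differences, of 1.56 (standard error 0.76), 0.75 (0.35) and -0.71 (0.41), so a larger change is not excluded for these 3 genes. In a bulk sample, fewer cells of a type and less RNA per cell cannot be told apart.

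**Figure D1:**
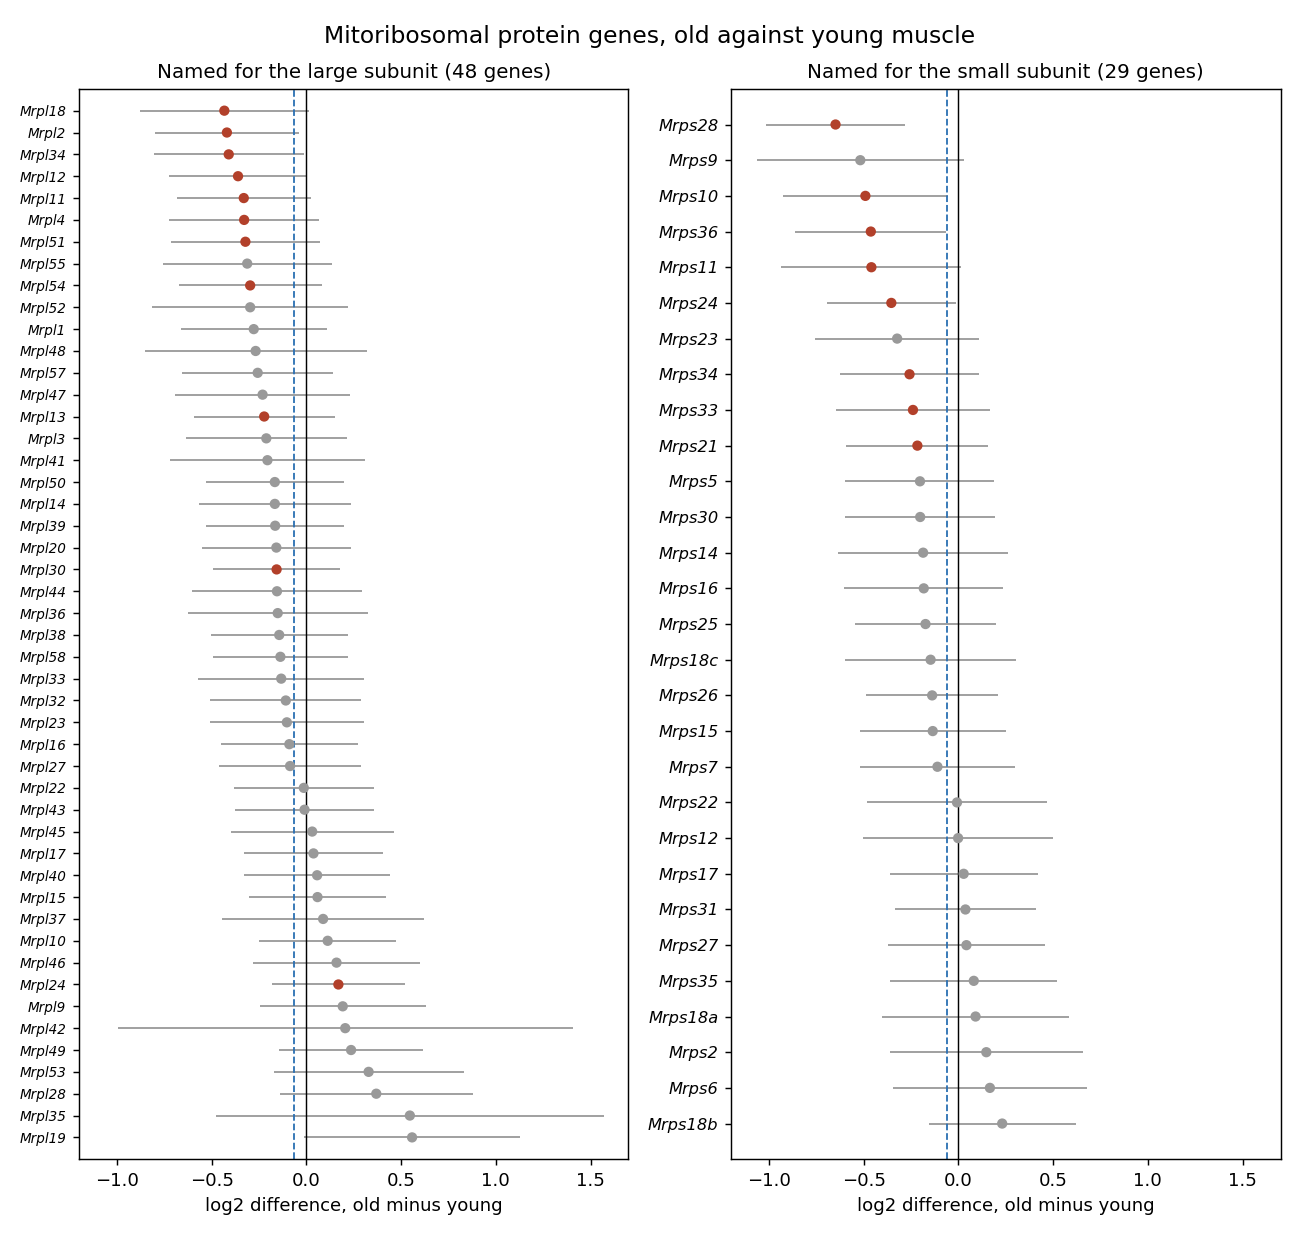
Log2 difference (x axis, old minus young) of each tested gene named for the large (48) or the small subunit (29), with its 95% interval as a bar. Red points are genes whose 3 old and 3 young values did not overlap, and the dashed line is the median of all genes tested (-0.06). Most points lie left of 0 and most bars cross it.

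In 18 members every old value lay below every young value (23.4%, against 13.9% of all genes), and in 1, Mrpl24, every old value lay above (1.30%, against 7.93%). The plot of log2 differences by gene marks these 19. This lean towards lower values was weaker without old replicate 1 and young replicate 3. The lean of the unadjusted p-values was then not seen, as given below. The members were mostly bright, with 65 of the 77 among the brightest 5227 genes. Among these, the groups did not overlap in the lower direction for 26.2% of the members and 18.7% of all genes, and the medians were -0.16 for the members and -0.10 for all genes. The 11 members among the next 5226 genes by brightness had a median of 0.08, against -0.04 for all genes there. The difference between members and other genes was not tested.

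Among the genes named for the small subunit, Mrps28 had the largest difference. It encodes a small-subunit protein with a bacterial counterpart. Its level, as log2 signal relative to the 75th percentile of the array (the scale of all levels here), was 5.78, 5.89 and 5.85 in the old samples, against 6.48, 6.36 and 6.63 in the young samples. The ages did not overlap, and the old samples lay close to each other. The log2 difference was -0.65 ± 0.15 (SE here and below, n = 3 per age), which is 1.57-fold, with limma's adjusted p = 0.163. Under the 19 alternative ways of processing it stayed negative, between -0.81 and -0.55, with adjusted p from 0.0672 to 0.438.

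Mrps10, the counterpart of bacterial S10 in the head of the small subunit, had levels of 3.44, 3.87 and 3.67 in old muscle, against 4.06, 4.04 and 4.34 in young muscle. Its log2 difference was -0.49 ± 0.18 (limma adjusted p = 0.305), with no overlap between the ages. Mrps9, the counterpart of S9, whose tail in bacteria reaches the peptidyl-tRNA site, had 3.25, 2.74 and 2.46 in old muscle, against 3.41, 3.22 and 3.38 in young muscle. Old replicate 1 lay among the young values here, and the difference was -0.52 ± 0.23 (adjusted p = 0.368). Mrps24, which corresponds to bacterial S3 at the mRNA entry, had tightly grouped values of 4.93, 4.99 and 4.88 in old muscle, against 5.24, 5.27 and 5.35 in young muscle. Its difference of -0.35 ± 0.14 had an adjusted p of 0.333 in limma's test.

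Other genes named for the small subunit had differences of both signs. Mrps11, the counterpart of S11 on the platform, had a log2 difference of -0.46 ± 0.20, with no overlap between the ages. Differences of -0.26 ± 0.15 for Mrps34, a mitochondrion-specific protein, and -0.22 ± 0.16 for Mrps21, the counterpart of S21, also came without overlap. Mrps34 was -0.0061 with normexp background correction, and Mrps21 was -0.096 with quantile normalization. Mrps23, another mitochondrion-specific protein, had -0.32 ± 0.18 with overlapping ages. At the other end of the range, Mrps18b, of the S18 family, and Mrps6, the counterpart of S6, had 0.23 ± 0.16 and 0.17 ± 0.21, both with overlapping ages. Limma's adjusted p for these 6 genes ran from 0.360 to 0.745.

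Among the genes named for the large subunit, the largest negative differences were those of Mrpl18, Mrpl2 and Mrpl34. Mrpl18, of the family that binds 5S rRNA in bacteria, had levels of 4.91, 5.31 and 4.99 in old muscle, against 5.50, 5.31 and 5.69 in young muscle. Its highest old value and lowest young value nearly met, and the difference was -0.43 ± 0.19 (limma adjusted p = 0.357). Mrpl2, the counterpart of L2 near the peptidyl transferase centre, had 6.56, 6.65 and 6.42 in old muscle, against 6.82, 6.96 and 7.10 in young muscle. These values did not overlap, with a difference of -0.42 ± 0.16 (adjusted p = 0.316).

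Mrpl34, the counterpart of bacterial L34, had levels of 5.03, 5.21 and 5.06 in old muscle, against 5.31, 5.56 and 5.66 in young muscle. Its log2 difference was -0.41 ± 0.17 (limma adjusted p = 0.334). Its probe was printed 10 times on each array, as were those of Mrpl50 and Mrps35. Over the spots of these 3 probes the SD within an array was 0.030 to 0.15, which measures the printing and scanning of a sample and not the spread between samples. Mrpl50 and Mrps35 had overlapping ages, with differences of -0.17 ± 0.15 and 0.08 ± 0.19.

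The stalk of the large subunit, which recruits translation factors, is formed around Mrpl12 and its base around Mrpl11. Mrpl12, which in human cells also binds the mitochondrial RNA polymerase, had 6.52, 6.69 and 6.59 in old muscle, against 6.84, 6.97 and 7.07 in young muscle. Mrpl11 had 6.42, 6.36 and 6.26 in old muscle, against 6.63, 6.62 and 6.77 in young muscle. Neither overlapped between the ages, and the differences were -0.36 ± 0.15 and -0.33 ± 0.15, with limma's adjusted p at 0.351 and 0.372. Mrpl4, whose bacterial counterpart lines the exit tunnel, and Mrpl51, a mitochondrion-specific protein, had -0.33 ± 0.17 and -0.32 ± 0.17. Both were without overlap, at adjusted p of 0.418 and 0.424.

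Positive differences in the large subunit were led by Mrpl19 and Mrpl35, the counterparts of bacterial L19 and L35. Mrpl19 had levels of 1.27, 1.84 and 2.04 in old muscle, against 1.01 to 1.36 in young muscle. Old replicate 1 again lay among the young values, and the difference was 0.56 ± 0.24 (limma adjusted p = 0.355). Mrpl35 ranged from 0.01 to 0.60 in old muscle and from -1.09 to 0.63 in young muscle, so its difference of 0.55 ± 0.43 lay within the spread of the young samples. It was 0.091 without young replicate 1 and 0.95 without young replicate 3. Mrpl33, the counterpart of L33, had a difference of -0.13 ± 0.18 that turned to 0.0093 with quantile normalization and 0.013 without young replicate 3. Mrpl42, a mitochondrion-specific protein, varied most among the old samples, at 4.48, 3.29 and 5.05, against 4.65, 4.14 and 3.41 in young muscle. Mrpl24, the counterpart of L24 and the gene with all old values above, had 4.80, 4.87 and 4.72 in old muscle, against 4.71, 4.53 and 4.65 in young muscle, a difference of 0.17 ± 0.15. Mrpl21, the member that was not tested, was well above background on 0 of the 6 arrays.

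The genes of the large and the small subunit had similar median differences. The median was -0.15 for the 48 genes named for the large subunit and -0.17 for the 29 named for the small subunit, 0.026 apart, a difference that was not tested. In each array alone, the large-subunit median minus the small-subunit median, each taken over values centred on the gene's mean, ran from 0.0046 to 0.059 in old muscle and from -0.079 to -0.018 in young muscle. These ranges did not overlap between the ages, a separation that was not tested. With the mean of a gene's probes, large minus small over all arrays was -0.0039. With every probe counted it was -0.0005, against the 0.026 given above. Of the large-subunit genes, 33 were below 0 and 10 lay lower without overlap (20.8%). Of the small-subunit genes, 21 were below 0 and 8 lay lower without overlap (27.6%). Both shares stand beside 13.9% of all genes.

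Names and places in the ribosome disagree for 3 genes. Mrps18a and Mrps30 are built into the large subunit of the mammalian mitoribosome, and Mrps36 is now known as a subunit of the 2-oxoglutarate dehydrogenase complex of the citric acid cycle. Mrps18a had a log2 difference of 0.09 ± 0.21, with young replicate 3 the lowest of the 6 samples, and -0.095 without that sample. Mrps30 had -0.20 ± 0.17 and overlapping ages. Mrps36 had levels of 5.44, 5.55 and 5.54 in old muscle, against 5.85, 5.86 and 6.21 in young muscle, a difference of -0.46 ± 0.17 (limma adjusted p = 0.298) without overlap. Its other probe gave -0.50 ± 0.16, also without overlap. With the first 2 genes counted as large-subunit genes and Mrps36 left out, the medians were -0.15 for 50 large-subunit genes and -0.16 for 26 small-subunit genes.

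Proteins inherited from the bacterial ribosome and those added in mitochondria also had similar medians, -0.15 over 45 genes and -0.14 over 29 genes. Of the genes with a bacterial counterpart, 13 lay lower without overlap (28.9%). Of those without one, 4 did so (13.8%). The share was 13.9% among all genes and 18.7% among the brightest 5227 genes, where most members lay. Mrps18a, Mrps30 and Mrps36 were left out of this split. The difference between the shares was not tested.

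Probes of the same gene were compared within a bound of 0.5 on the log2 scale, which is wide beside the members' median of -0.15. For 22 members 2 probes passed the filter, and for 19 of these they differed by no more than this bound. The exceptions were Mrps18b, Mrpl15, the counterpart of L15, and Mrpl41, a mitochondrion-specific protein. The second probe of Mrps18b had 2.67, 2.53 and 2.84 in old muscle, against 2.45, 1.67 and -0.76 in young muscle, a difference of 1.56 ± 0.76. Young replicate 3 stood far below the other samples there, while the probe that represents Mrps18b showed no such value. Mrpl15 had 0.06 ± 0.15, and 0.75 ± 0.35 by its other probe. Mrpl41 had -0.21 ± 0.22, and -0.71 ± 0.41 by its other probe. Within the bound, some pairs had the same sign, such as Mrpl4 (-0.33 and -0.31), and others opposite signs, such as Mrps14 (-0.19 and 0.26) and Mrps7 (-0.11 and 0.17). The other probes of Mrps2 and Mrpl10 lay higher without overlap, at 0.47 ± 0.16 and 0.42 ± 0.18. Of the members' 99 kept probes, 22 lay lower without overlap (against 13.3% of all probes) and 4 higher (against 7.95%). Different probes can measure different transcripts of a gene.

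The members lay lowest on an old array and highest on a young array. After each gene was centred on its mean over the 6 arrays, the median of the 77 members was -0.15, 0.021 and -0.038 on old arrays 1 to 3, and 0.046, 0.013 and 0.20 on young arrays 1 to 3. The same medians over all genes were -0.035, 0.015 and -0.042 on the old arrays and 0.011, 0.0058 and 0.11 on the young arrays. Old replicate 1 thus lay lowest and young replicate 3 highest, and the other 4 arrays were close together. Old replicate 1 held the lowest of the 6 values for 37 members (48.1%, against 24.3% of all genes). Young replicate 3 held the highest for 43 members (55.8%, against 30.2% of all genes). Without both arrays the median of the members was -0.060, against -0.015 for all genes. The large-subunit median was then -0.038 and the small-subunit median -0.089. Old replicate 1 also had the highest mean negative-control signal, 61.3 against 51.9 to 55.1 on the other arrays, and the largest share of spots well above background, 54.8%. Limma's array weights were lowest for old replicate 1 (0.448) and young replicate 3 (0.535), against 1.16 to 2.04 for the others. The part of these properties in the members' medians was not tested.

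**Figure D2:**
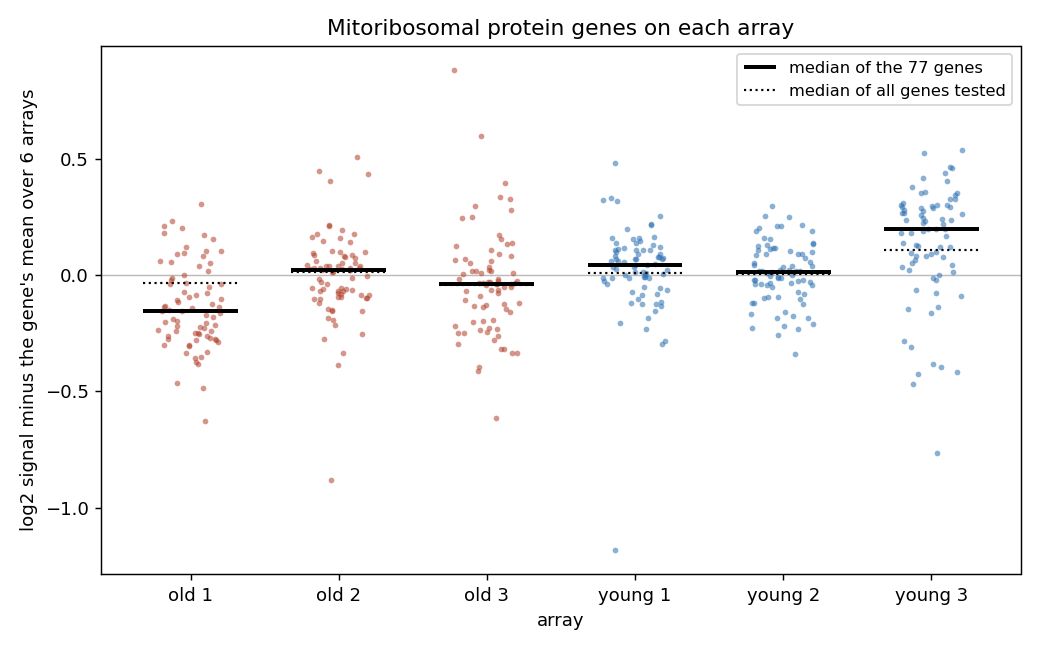
Values of the 77 tested members on each array (x axis), as log2 signal minus the gene's mean over the 6 arrays (y axis). Each point is a gene, the solid line is the median of the members and the dotted line the median of all genes tested. Old replicate 1 (-0.15) and young replicate 3 (0.20) stand apart from the other 4 arrays.

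The scale chosen for the arrays also bore on the size of the shift, but not on its sign. With quantile normalization the median of the members was -0.066, against -0.046 for all genes. With each array centred on its median these were -0.30 and -0.21. Relative to all genes, the members were lower by these medians under every alternative run. Of the 77 members, 17 lay lower without overlap with quantile normalization (against 13.3% of all genes). With normexp background correction 17 of the 77 did so (against 14.5%), and with median centring 27 of the 77 (against 21.3%). Higher without overlap were 4 of the 77 with quantile normalization (against 8.55%) and 4 with normexp (against 6.94%). With median centring 0 were higher (against 3.34%). In the plot of medians by processing, the medians of both subunits lie below the median of all genes throughout.

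**Figure D3:**
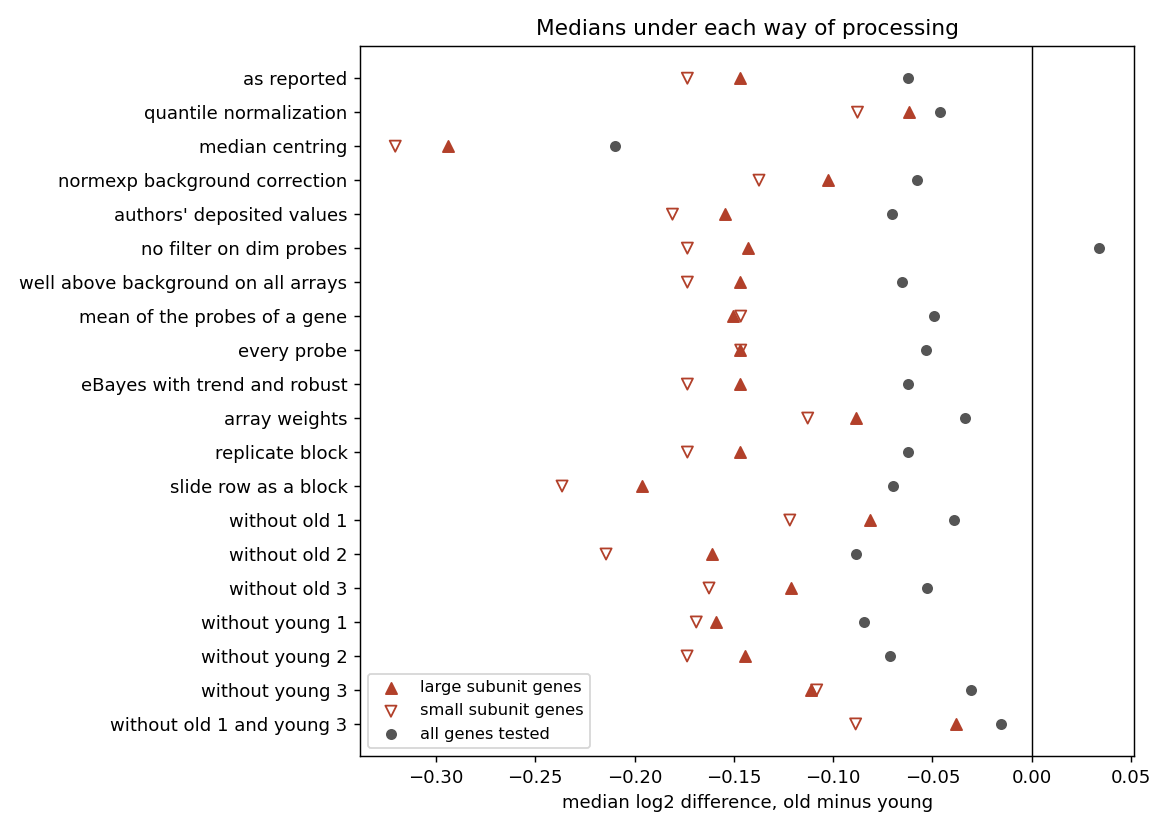
Median log2 difference (x axis, old minus young) of the large-subunit genes (filled triangles), the small-subunit genes (open triangles) and all genes tested (circles) under each way of processing (rows). All triangles lie below 0, and they lie closest to all genes with quantile normalization (-0.062 and -0.088, against -0.046).

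Genes around the mitoribosome were set beside its protein genes, and 0 of them passed limma's adjusted threshold. At an unadjusted p under 0.05, 1 gene of assembly was lower (3.70%, against 8.39% of all genes) and 2 were higher (7.41%, against 6.07%). Among translation factors 1 was lower (6.67%), and among the 9 regulators 1 was lower and 1 higher. The 6 proteins of the mitoribosome, or bound to it, with other names were all below 0, with a median of -0.21. Among them, Ptcd3, a small-subunit protein, had -0.25 ± 0.15 and Aurkaip1, another, had -0.27 ± 0.19, both without overlap between the ages. Gadd45gip1, a large-subunit protein, and Oxa1l, the insertase that docks at the exit tunnel, had -0.18 ± 0.17 and -0.26 ± 0.26 with overlap. Limma's adjusted p for these 4 ran from 0.493 to 0.676.

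The 27 tested genes of mitoribosome assembly and rRNA modification had a median of 0.07, with 13 below 0. Tfb1m, which methylates the rRNA of the small subunit, had levels of 2.38, 2.82 and 2.85 in old muscle, against 2.14, 1.80 and 2.35 in young muscle. Its difference was 0.59 ± 0.22 without overlap. Trmt61b, an RNA methyltransferase, had 0.72 ± 0.20, also without overlap. Trmt2b, which methylates uridines in mitochondrial RNA, and Mtg1, a GTPase of large-subunit assembly, had -0.44 ± 0.17 and -0.32 ± 0.15, in both without overlap. Limma's adjusted p for these 4 ran from 0.202 to 0.372.

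The 15 mitochondrial translation factors had a median of -0.07, with 12 below 0. Gfm1, the elongation factor that moves the ribosome along the mRNA, had levels of 5.83, 5.94 and 5.84 in old muscle, against 6.16, 6.36 and 6.37 in young muscle. Its difference was -0.43 ± 0.15 (limma adjusted p = 0.289), and the ages did not overlap. Gfm2, which acts in ribosome recycling, had -0.32 ± 0.19, Guf1, a GTPase related to elongation factor 4, had -0.41 ± 0.23, and Slirp, which stabilises mitochondrial mRNAs, had -0.27 ± 0.22. In these 3 the ages overlapped.

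Mitochondrial transcription was represented by 6 genes, with a median of 0.09. Tefm, the transcription elongation factor, had a difference of 1.12 ± 0.54, from 1.78, 1.53 and 1.87 in old muscle against 1.53, 0.98 and -0.70 in young muscle. Young replicate 3 was far below the others, and limma's adjusted p was 0.398. Mterf1a, a termination factor, had 0.33 ± 0.18. Polrmt, the RNA polymerase, and Tfb2m, its initiation factor, had -0.30 ± 0.19 and -0.21 ± 0.18. No probe carried a symbol of the mitochondrially encoded rRNAs or mRNAs searched, so these were not analysed here.

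Of 9 regulators of mitochondrial biogenesis, Esrra, a nuclear receptor that works with PGC-1 coactivators on mitochondrial genes, had levels of 6.48, 6.23 and 6.05 in old muscle, against 6.62, 6.85 and 6.83 in young muscle. The ages did not overlap, with a difference of -0.51 ± 0.18 (limma adjusted p = 0.284). Myc, a transcription factor that promotes ribosome production, had -0.16, -0.01 and 1.50 in old muscle, against -1.05, -1.12 and -1.36 in young muscle. Its difference was 1.62 ± 0.43 (adjusted p = 0.196), without overlap and with old replicate 3 far above the other samples. The PGC-1 family members Pprc1 and Ppargc1b had 0.55 ± 0.26 and 0.18 ± 0.16, with overlapping ages. Ppargc1a, which encodes PGC-1alpha and is named here after its value was seen, had -0.017 ± 0.23. The median of the 9 genes was 0.04.

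Beside the mitoribosome, the nuclear-encoded subunits of the respiratory chain had the lower median and the cytosolic ribosomal proteins the higher one. The 78 respiratory chain genes had a median of -0.28, with 72 below 0 and 36 lower without overlap (46.2%, against 13.9% of all genes). The 82 cytosolic ribosomal protein genes had a median of -0.01, with 44 below 0 and 1 lower without overlap (1.22%). The 77 mitoribosomal genes lay between, at -0.15 and 23.4%. In these 3 groups 0 genes passed limma's adjusted threshold, and at an unadjusted p under 0.05 8 respiratory chain genes were lower (10.3%, against 8.39% of all genes) and 1 cytosolic ribosomal gene was higher (1.22%, against 6.07%). On the arrays that stood apart, the centred median of the cytosolic ribosomal proteins was -0.19 on old replicate 1 and 0.21 on young replicate 3, and that of the respiratory chain genes -0.21 and 0.28. Differences between the groups were not tested.

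**Figure D4:**
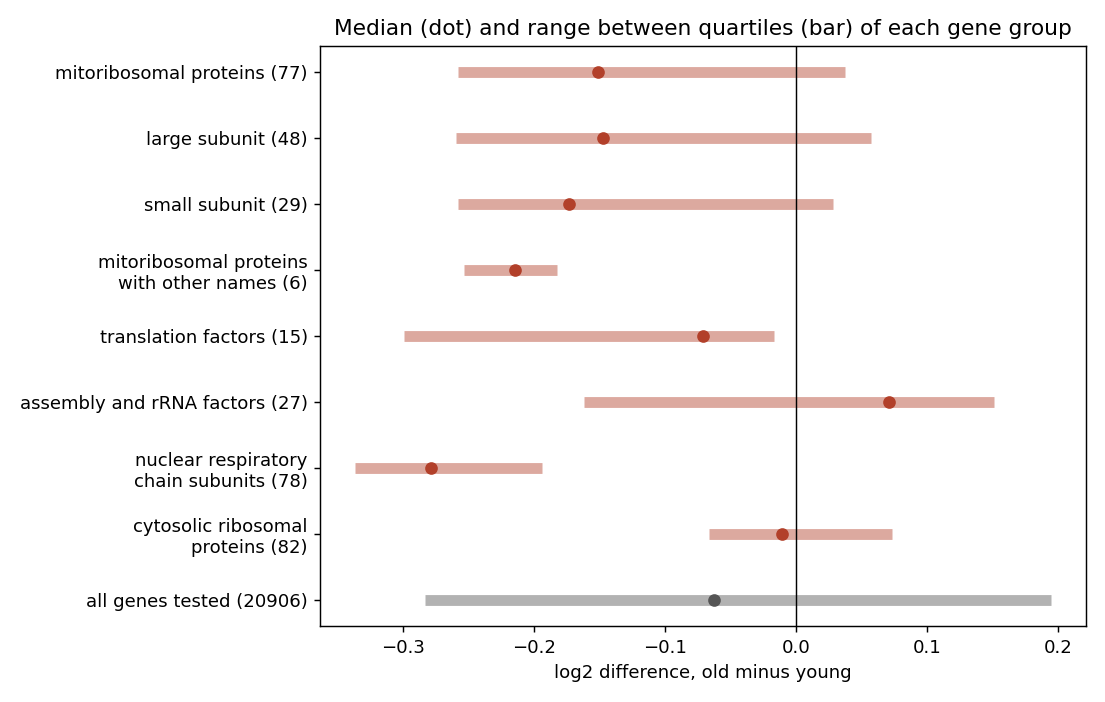
Median log2 difference (dots, x axis, old minus young) and the range between the quartiles of its genes (bars) in each gene group, with the number of tested genes in parentheses. The mitoribosomal medians (-0.15) lie between those of the respiratory chain subunits (-0.28) and the cytosolic ribosomal proteins (-0.01).

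Promoters of the members were searched for motifs of factors that are known to act on nuclear genes of mitochondria. RefSeq promoter windows (GRCm38.p6), from 250 bases before to 50 after the gene's start, were given for 69 of the 78 members. The motif of NRF1, a factor of mitochondrial biogenesis genes, was searched as TGCGCA, any base and GCGCA, that of the ETS family, which includes the GABP subunit Gabpa, as CCGGAAG, and that of YY1 as AANATGGCG, on both strands. The NRF1 motif was in 6 of the 69 windows (8.70%, against 1.07% of the windows of all 27025 genes and 1.50% of those of 17492 protein-coding genes). The core of the NRF1 motif, GCGCA, any base and GCGC, was in 13 (18.8%, against 4.78% and 6.60%). The ETS motif was in 25 (36.2%, against 9.12% and 11.9%), and the YY1 motif in 11 (15.9%, against 2.51% and 3.30%). The windows were not matched for base composition. A match is a description of the letters and not a site.

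The 6 members with the full NRF1 motif are shown because they share this motif but cover both signs of difference. Each line gives up to 30 bases on either side of the match, 5′ to 3′ in the direction of the gene, with the match in capitals. They were chosen by the motif, and apart from Mrps9 they are described for this reason alone.
Mrps9: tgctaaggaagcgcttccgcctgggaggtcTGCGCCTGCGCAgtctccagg
Mrpl57: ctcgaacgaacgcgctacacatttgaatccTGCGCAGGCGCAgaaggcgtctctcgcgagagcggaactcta
Mrpl44: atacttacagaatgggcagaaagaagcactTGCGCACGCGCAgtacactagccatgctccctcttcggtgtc
Mrpl32: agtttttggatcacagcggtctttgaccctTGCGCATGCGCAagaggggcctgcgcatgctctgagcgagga
Mrpl45: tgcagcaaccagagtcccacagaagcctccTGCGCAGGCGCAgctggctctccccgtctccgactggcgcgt
Mrpl17: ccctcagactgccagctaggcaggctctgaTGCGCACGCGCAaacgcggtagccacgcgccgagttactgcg

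These stretches lie at chr1:42851197-42851247 (plus strand) for Mrps9, chr14:57826151-57826222 (plus) for Mrpl57 and chr1:79775952-79776023 (plus) for Mrpl44. They lie at chr13:14613084-14613155 (minus) for Mrpl32, chr11:97315565-97315636 (plus) for Mrpl45 and chr7:105811096-105811167 (minus) for Mrpl17. The match in Mrps9 is on the strand opposite to the gene and spans its start, and that in Mrpl32 reads as the motif on both strands. In the order shown, the log2 differences were -0.52, -0.26, -0.15, -0.11, 0.03 and 0.04. Their median was -0.13, against -0.15 for the 62 tested members whose window lacked the motif. For the core of the motif the order was the other way, with -0.16 for 13 members with it and -0.14 for 55 without. The median was -0.14 for 24 members with the ETS motif, against -0.16 for 44 without, and -0.09 for 11 with the YY1 motif, against -0.16 for 57 without.

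Many members share their upstream region with a gene that runs the other way. A protein-coding gene on the opposite strand started within 1000 bases upstream of 23 of the 69 members (33.3%), against 7.52% of all protein-coding genes with a window. One such pair consists of members, Mrpl46, a mitochondrion-specific protein of the large subunit, and Mrps11. Their starts lie 42 bases apart, and the sequence from the start of Mrpl46 to that of Mrps11, at chr7:78783089-78783131 on the plus strand, is shown as the stretch both genes share.
Mrpl46-Mrps11: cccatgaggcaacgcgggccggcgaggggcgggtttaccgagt

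The 2 genes on either side of this stretch had differences of opposite sign. Mrps11 had levels of 2.28, 2.43 and 2.08 in old muscle, against 2.66, 2.49 and 3.02 in young muscle, a log2 difference of -0.46 ± 0.20 (limma adjusted p = 0.360). Mrpl46 had 2.91, 2.86 and 2.93 in old muscle, against 2.96, 2.84 and 2.43 in young muscle, a difference of 0.16 ± 0.19 (adjusted p = 0.719). Young replicate 3 was the highest sample for Mrps11 and the lowest for Mrpl46. Over the 20 pairs of a member and such a protein-coding neighbour that were both tested, with Mrpl46 and Mrps11 counted from either side, the differences had the same sign in 9.

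Markers of the tissue and of other cell types were examined in the same samples. All 9 skeletal muscle markers, among them Acta1 and Ckm, were tested, with a mean level of 8.71 to 9.11 on the old arrays and 8.90 to 9.04 on the young arrays. Their median log2 difference was -0.17, close to the members' -0.15, with 1 of 9 above 0. Of 8 macrophage markers 7 were tested, with a mean of 0.95 to 1.35 in old muscle, against 0.40 to 0.67 in young muscle. Of 5 neutrophil markers 3 were tested, with means of 1.32 to 2.11 in old muscle, against -3.39 to -2.22 in young muscle, and S100a8 and S100a9 were higher in old muscle at adjusted p under 0.05 in limma's test. The 3 erythroid markers had means of 1.91 to 3.08 in old muscle, against 3.16 to 4.18 in young muscle. The 4 Schwann cell markers had means of -1.05 to -0.85 in old muscle, against -0.39 to -0.33 in young muscle, with Prx lower at adjusted p under 0.05 in limma's test. Log2 differences were above 0 for 6 of the 7 macrophage markers and 3 of the 3 neutrophil markers. They were above 0 for 0 of the 3 erythroid markers and 1 of the 4 Schwann cell markers. The means of adipocyte, endothelial and fibroblast or tendon markers overlapped between the ages, with median log2 differences of -0.24 (0 of 3 above 0), -0.15 (2 of 4) and -0.89 (1 of 4). The part of these markers in the members' differences was not tested.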

How the data were processed

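Total RNA of gastrocnemius from 3 old and 3 young samples was hybridised to 6 single-colour Agilent arrays on 1 slide. Each deposited scanner file gives the intensity of every spot after background subtraction and detrending, done in Agilent Feature Extraction 11.0.1.1 per the file headers and in version 9.5 per the submitters' processing notes. The authors' deposited value table holds the same intensity as a rounded percentage of the 75th percentile of the array, a linear scale that is not centred per gene. This was found for all 62976 spots, and the table served as an alternative.

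On each array, control spots and 161 to 212 outlier spots were dropped. Spots of a probe were averaged as log2 of the deposited intensity, and the array's 75th percentile over all probes was subtracted. Of 55681 probes, 28331 matched 1 RefSeq symbol by accession. The other 27350 kept the file's name, which was counted as a gene, so all genes is a wider set than annotated genes. A probe was kept where at least 3 of 6 arrays had it well above background, and a gene was its kept probe with the highest mean. Between 49.9% and 54.8% of probe spots were well above background and 0 were saturated. Precision is limited by the number of arrays.

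The ages were compared in limma 3.58.1 (two-sided moderated test, lmFit and eBayes, adjusted over 20906 genes at 0.05) in R 4.3.3. The code was also run on simulated data with changes larger than any member's difference. That run does not bear on differences of the members' size. Medians of groups are descriptions with no test. Tables and figures used Python 3.11.15, numpy 2.4.6, pandas 2.3.3, scipy 1.17.1 and matplotlib 3.10.9. The array grid names mm9, so coordinates come only from RefSeq's promoter table (GRCm38.p6).

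The members, lists, motifs and settings were chosen with earlier results of these data known. The rule for named genes took, in each subunit, the 8 lowest p-values, the 2 highest mean levels and the 2 differences nearest each end of the range. It added genes whose probes differ by over 0.5, the 3 genes whose name and place disagree, and up to 4 genes per list. Other members named here were chosen after their values were seen, or by their promoter. Alternatives tried were the authors' values, normexp (offset 50), median centring, quantile normalization, 2 other filters, 2 other rules for probes, array weights, a robust eBayes with a trend, the replicate block, the slide row and leaving out each array. Leaving out old replicate 1 with young replicate 3, and the members' median minus that of all genes, were added after seeing the data.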

Additional observations from a re-analysis of the deposited data

How the results depend on the processing

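No member passed the adjusted threshold under any of the 19 alternatives, and the medians of the members and of both subunits stayed below 0 in all of them. With quantile normalization the large-subunit median was -0.062 and the members' median minus that of all genes -0.020. With median centring the medians were -0.298 for all members, -0.294 for the large and -0.320 for the small subunit. With no filter on dim probes the members' median minus that of all genes was -0.183, over 36717 genes. Leaving out each array in turn gave -0.180 to -0.103 for all members, -0.161 to -0.0816 for the large and -0.214 to -0.108 for the small subunit. Large minus small then ran from -0.0028 to 0.053, and members minus all genes from -0.092 to -0.064. Without old replicate 1 and young replicate 3 the large-subunit median was -0.038. The count of genes called in all, 53, was 8 with no filter, 35 where all arrays had to exceed background, 194 with array weights, 159 without that pair, and 1 to 186 when each array was left out. It was 186 without old replicate 1, and 6 and 1 without old replicates 2 and 3. It was 10, 8 and 17 without young replicates 1, 2 and 3.

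Of the 25 members named by rule, 6 changed sign under some alternative, all at adjusted p above 0.6. Mrpl15 was -0.088 with median centring and ran from -0.027 without the pair to 0.12 without young replicate 1. Mrpl33 was 0.0093 with quantile normalization and 0.013 without young replicate 3, and ran from -0.22 without young replicate 1 to 0.038 without the pair. Mrps18a was -0.056 with median centring and -0.054 without the pair, and ran from -0.095 without young replicate 3 to 0.22 without young replicate 1. With the slide row as a block Mrpl41 was 0.078, Mrps30 0.0029 and Mrps6 -0.21. Row 1 held the 3 young arrays and old replicate 1, and row 2 held old replicates 2 and 3, so that fit compares old replicate 1 alone with the young arrays. For the other sign changes the cause was not tested.

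Whether the replicate numbers pair the samples is not known. Same-numbered old and young samples correlated at -0.06, -0.27 and 0.03 in their deviations from the group means, against -0.21 to 0.35 for samples of different numbers. Deviations within a group sum to 0, which ties these correlations together, so they cannot settle the pairing. With the replicate number as a block 5 genes were called, none of them a member, and the medians did not change. Dim signal limited only Mrpl21 among the members.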
